A study of Yarrowia lipolytica with 3 samples.

Results

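The acyltransferases that assemble triacylglycerol and sterol esters in the oil-accumulating yeast Yarrowia lipolytica were followed through the transcripts of SCT1 (YALI0C00209g), SLC1 (YALI0E18964g), DGA1 (YALI0E32769g), DGA2 (YALI0D07986g), LRO1 (YALI0E16797g) and ARE1 (YALI0F06578g). These 6 genes were taken by identifier from the 6448 listed genes; the rule used no measured value, although it was set with earlier results of these data known. RNA was sequenced from 3 cultures, 1 per strain: an mhy1Δ mutant, a mutant overexpressing MHY1, and the wild type. All derive from strain PO1a and were grown at 30 °C in uracil-supplemented YNDC7 medium, in 50 ml cultures, to an OD600 of 0.8. The protein made from MHY1 is a zinc-finger transcription factor, best known as a regulator of hyphal development in this dimorphic species. Which promoter drives the overexpression, and how many clones were used, is not stated in the labels. Names were given with the identifiers when the genes were chosen, and the files themselves pair no names with them.

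Triacylglycerol is built on a glycerol backbone by successive acylations. Glycerol 3-phosphate acyltransferase adds the first acyl chain, lysophosphatidic acid acyltransferase the next, and after removal of the phosphate a diacylglycerol acyltransferase completes the molecule. The last acyl chain can come from acyl-CoA or from a phospholipid, and sterols are esterified by a related acyl-CoA enzyme; triacylglycerol and sterol esters are stored together in lipid bodies. Y. lipolytica is known for the large amount of storage lipid it can hold.

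Levels are given in RPKM, in which reads are divided by gene length and by library size, so that levels of different genes can be compared per length. Library totals recovered from the values were 59527000 reads for mhy1Δ, 75306802 for MHY1 overexpression and 47622181 for wild type. YALI0B21582g, taken as MHY1, was listed at 0 in mhy1Δ and had 1159 RPKM under overexpression, against 467 RPKM in wild type. With 1 library per strain there is no replicate error and no test: every interval below is a 95% interval for counting error only, and a difference outside it may still lie within the spread between cultures. Comparisons with wild type share its single library, and the comparison of the engineered strains uses the same libraries again. Changes of single genes are read against the median log2 ratio of the 6035 genes that reached 1 RPKM in any library, which was −0.03 for mhy1Δ against wild type, 0.16 for overexpression against wild type and 0.20 for overexpression against mhy1Δ. Median of ratios scaling brought these medians to 0.021, 0.0044 and −0.0026.

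All 6 genes were expressed well above the 1 RPKM filter in every library, and they kept much of their order by level. SLC1 was highest in each strain, at the 93.3rd percentile of all genes in mhy1Δ, the 93.9th in the overexpression strain and the 93.3rd in wild type. ARE1 was lowest in each strain, at the 48.3rd, 34.0th and 34.3rd percentiles in the same order. Of the genes between them, SCT1 came directly after SLC1 in each library, and DGA1, DGA2 and LRO1 traded places. The order was SCT1, LRO1, DGA1, DGA2 in mhy1Δ, SCT1, DGA1, DGA2, LRO1 in the overexpression strain, and SCT1, DGA1, LRO1, DGA2 in wild type. Only SCT1 and DGA1 in the overexpression library were neighbours whose ratio could not be told from 1 by counting error, at 1.01 (0.980 to 1.04). DGA1 and DGA2 lay close together in mhy1Δ, where their ratio was 1.06 (1.02 to 1.11).

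**Figure D1:**
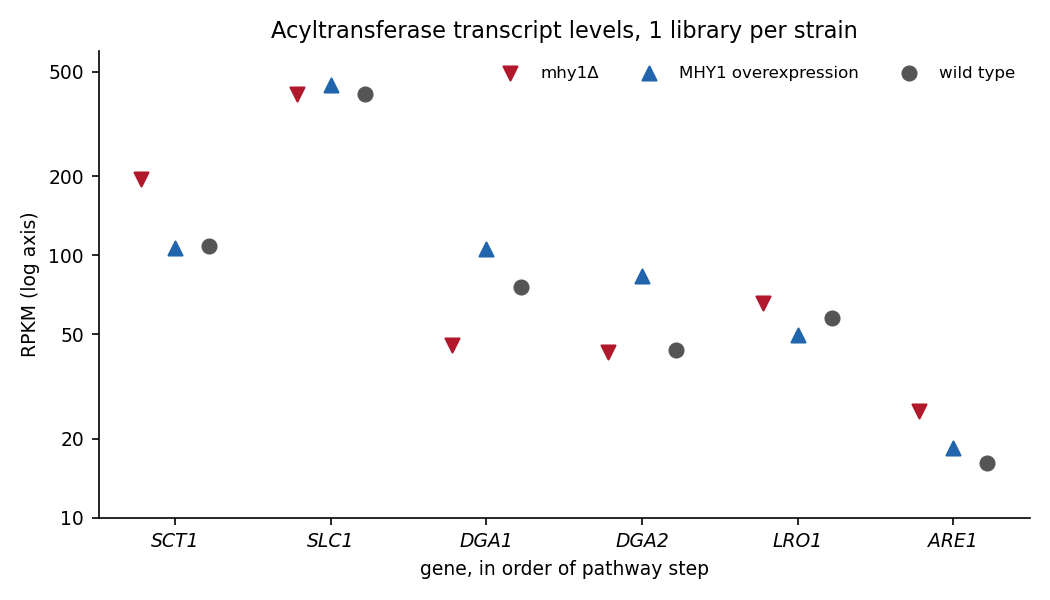
RPKM (log axis) of the 6 acyltransferase genes in order of pathway step, with 1 point per library for mhy1Δ, MHY1 overexpression and wild type. SCT1 stands out in mhy1Δ at 195 RPKM, DGA1 is lowest in mhy1Δ at 45.6 RPKM, and DGA2 stands out in the overexpression strain at 83.5 RPKM.

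SCT1, the glycerol 3-phosphate acyltransferase that opens the pathway, was the gene that stood out in mhy1Δ. It was at 195 RPKM in mhy1Δ, 106 RPKM in the overexpression strain and 108 RPKM in wild type. The mhy1Δ library was thus high, and the other libraries were close to each other. SCT1 was 1.80-fold higher in mhy1Δ than in wild type (1.74 to 1.85), a log2 ratio of 0.84 that was reached or passed by 2.45% of all genes compared. In the overexpression strain it was 0.979 times its wild-type level (0.946 to 1.01), within counting error as deposited. Its log2 ratio relative to the median of all genes was −0.19 there, beyond that interval. Its recovered length of 1092 bp may be a fraction of the true length; its reads (12669 in mhy1Δ, 8730 in the overexpression strain, 5641 in wild type) would then be too low by the same factor and its intervals too wide.

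SLC1, the lysophosphatidic acid acyltransferase of the next step, was the flattest of the 6 genes. It was at 412 RPKM in mhy1Δ, 443 RPKM in the overexpression strain and 410 RPKM in wild type, so that its highest level was 1.08 times its lowest. Against wild type it was 1.00-fold in mhy1Δ (0.984 to 1.02) and 1.08-fold in the overexpression strain (1.06 to 1.10). No direction can be given for the difference under overexpression: its log2 ratio was 0.11 as deposited, −0.05 both with median of ratios scaling and after centring on the median of all genes, and −0.0015 when libraries were scaled by their upper quartile. The proportion of the 2 genes stood apart in mhy1Δ: SLC1 transcripts were 2.11 times those of SCT1 in mhy1Δ (2.07 to 2.16) and 4.18 times in the overexpression strain (4.08 to 4.28), against 3.78 times in wild type (3.67 to 3.90). Such ratios within a library do not depend on how the library is scaled.

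DGA1 was ordered with MHY1 across the strains, with its differences from wild type in both engineered strains beyond counting error. It encodes an acyl-CoA:diacylglycerol acyltransferase of the DGAT2 family. DGA1 was at 45.6 RPKM in mhy1Δ (4194 reads), 105 RPKM in the overexpression strain (12264 reads) and 75.8 RPKM in wild type (5575 reads). Its level was thus lowest without MHY1 and highest with extra MHY1. It was 1.66-fold lower in mhy1Δ than in wild type (1.60 to 1.73), and 9.59% of all genes were as low or lower on this scale. Under overexpression it stood 1.39-fold above wild type (1.35 to 1.44), where 23.5% of all genes were as high or higher. Relative to the median of all genes these log2 ratios were −0.69 and 0.31. As deposited DGA2 had the same order, but its difference in mhy1Δ was within counting error. Of all genes, 53.8% had a log2 ratio below 0 in mhy1Δ and 66.7% above 0 with overexpression. The share of all genes with both was not counted.

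DGA2, the acyl-CoA:diacylglycerol acyltransferase of the DGAT1 family, followed another pattern. It was at 42.8 RPKM in mhy1Δ (4030 reads), 83.5 RPKM in the overexpression strain (9941 reads) and 43.5 RPKM in wild type (3273 reads). Here the overexpression library alone was high. DGA2 was 1.92-fold higher in it than in wild type (1.85 to 1.999), and its log2 ratio of 0.93, or 0.77 relative to the median of all genes, was reached or passed by 7.19% of all genes. In mhy1Δ it was 0.985 times its wild-type level (0.940 to 1.03), within counting error, and the sign of its log2 ratio, −0.02 as deposited, turned with median of ratios scaling (0.03), with upper-quartile scaling (0.04) and after centring (0.01).

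DGA1 and DGA2 thus stood in different proportions in the strains. The ratio of DGA1 to DGA2 was 1.06 in mhy1Δ (1.02 to 1.11) and 1.26 in the overexpression strain (1.23 to 1.30), against 1.74 in wild type (1.67 to 1.82). Their summed level was 88.4 RPKM in mhy1Δ and 189 RPKM in the overexpression strain, against 119 RPKM in wild type. The sum was 1.35-fold lower in mhy1Δ (1.31 to 1.39) and 1.58-fold higher in the overexpression strain (1.55 to 1.62). These sums are as deposited and were not set relative to the median log2 ratio of all genes, −0.03 and 0.16 in these comparisons. The lower sum in mhy1Δ came almost wholly from DGA1, with a difference of −30.2 RPKM beside −0.65 RPKM for DGA2, whereas under overexpression DGA2 gave 40.0 RPKM of the difference and DGA1 29.6 RPKM.

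LRO1, the phospholipid:diacylglycerol acyltransferase that takes the last acyl chain from a phospholipid, was on the other side of wild type from DGA1 in both engineered strains. It was at 65.5 RPKM in mhy1Δ, 49.7 RPKM in the overexpression strain and 57.4 RPKM in wild type. It was 1.14-fold higher in mhy1Δ (1.10 to 1.18) and 1.15-fold lower in the overexpression strain (1.11 to 1.20) than in wild type. Of all genes, 23.1% were as high or higher in mhy1Δ and 16.6% as low or lower in the overexpression strain. Relative to the median of all genes its log2 ratios were 0.22 in mhy1Δ, smaller in size than that of DGA1, and −0.36 under overexpression, slightly larger in size than that of DGA1. Within a library DGA1 was 0.696 times LRO1 in mhy1Δ (0.670 to 0.723) and 2.12 times LRO1 in the overexpression strain (2.06 to 2.18), against 1.32 times in wild type (1.27 to 1.37). DGA2 was 0.653 times LRO1 in mhy1Δ (0.629 to 0.679) and 1.68 times in the overexpression strain (1.63 to 1.73), against 0.757 times in wild type (0.725 to 0.791).

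ARE1, the acyl-CoA:sterol acyltransferase that forms sterol esters, was highest in mhy1Δ. It was at 25.6 RPKM in mhy1Δ (2488 reads), 18.5 RPKM in the overexpression strain (2273 reads) and 16.2 RPKM in wild type (1257 reads). It was 1.58-fold higher in mhy1Δ than in wild type (1.48 to 1.70), a log2 ratio of 0.63 that 4.11% of all genes reached or passed. Under overexpression it stood 1.14-fold above wild type (1.07 to 1.23), which is a log2 ratio of 0.18 and 0.02 relative to the median of all genes. ARE1 transcripts were 0.391 times those of LRO1 in mhy1Δ (0.373 to 0.409) and 0.372 times in the overexpression strain (0.355 to 0.390), against 0.282 times in wild type (0.265 to 0.2997).

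**Figure D2:**
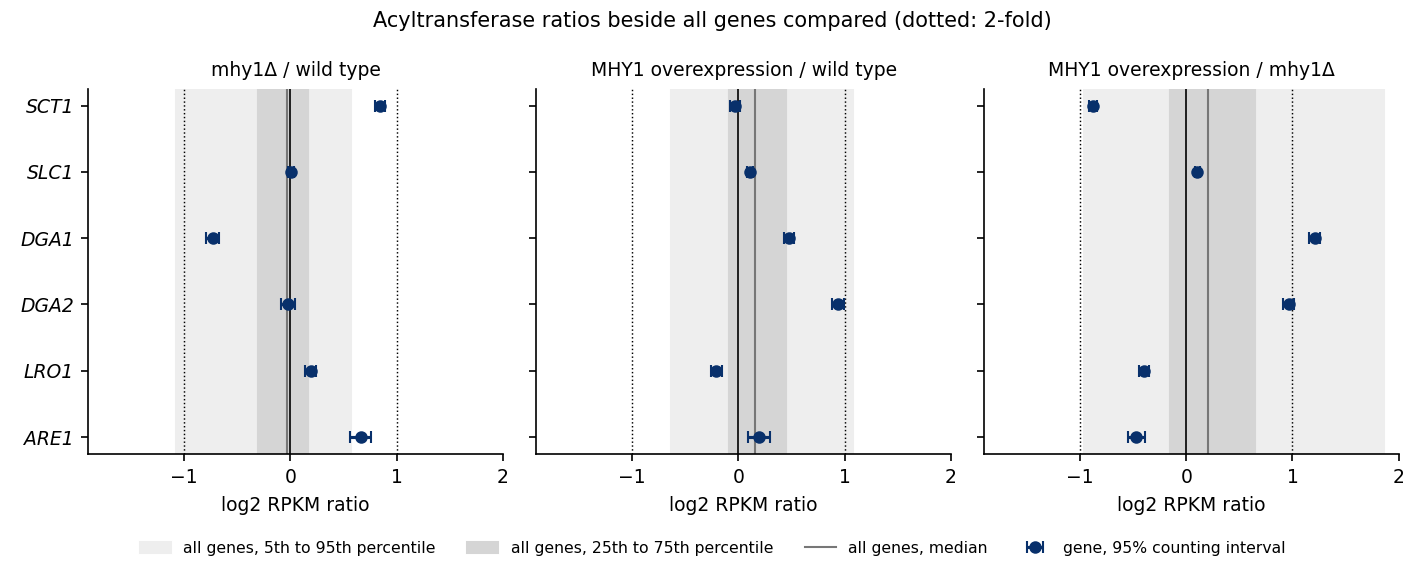
Log2 RPKM ratio of each acyltransferase gene (point) with its 95% counting interval (bar) in the 3 comparisons; shaded bands and the grey line give the percentiles and median of the log2((RPKM + 1) ratio) of all 6035 genes compared. SCT1 and ARE1 lie right of the 95th percentile in mhy1Δ against wild type, no gene lies beyond 2-fold against wild type, and DGA1 lies beyond 2-fold between the engineered strains.

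The 6 genes were also compared with 2-fold and 1.5-fold lines on the log2((RPKM + 1) ratio) scale. In mhy1Δ against wild type 0 of 6 genes were at least 2-fold higher, where 1.66% of all genes were, and 0 of 6 at least 2-fold lower, where 5.83% were. At 1.5-fold SCT1 and ARE1 were higher, 2 of 6 beside 4.66% of all genes, and DGA1 was lower, 1 of 6 beside 13.0%. In the overexpression strain against wild type 0 of 6 genes were at least 2-fold higher, beside 5.98% of all genes, and 0 of 6 at least 2-fold lower, beside 2.47%. At 1.5-fold DGA2 was higher, 1 of 6 beside 16.8%, and 0 of 6 were lower, beside 5.62%. No test was run on these counts of 6 genes. The median log2 ratio of the 6 genes was 0.10 in mhy1Δ and 0.15 in the overexpression strain, beside −0.03 and 0.16 for all genes. In mhy1Δ 5 of the 6 genes lay above the all-gene median and 1 below. In the overexpression strain 3 lay above and 3 below.

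Set directly against mhy1Δ, the overexpression strain had higher DGA1 and DGA2 and lower SCT1, LRO1 and ARE1. DGA1 was 2.31-fold higher (2.23 to 2.39) and DGA2 1.95-fold higher (1.88 to 2.02), while SCT1 was 1.84-fold lower (1.79 to 1.89), ARE1 1.38-fold lower (1.31 to 1.47) and LRO1 1.32-fold lower (1.28 to 1.36). SLC1 was 1.08-fold higher as deposited, and its sign turned under both other scalings and after centring. DGA1 was the 1 gene of 6 at least 2-fold higher, beside 15.0% of all genes, and 0 of 6 were at least 2-fold lower, beside 4.74%. These calls depended on scaling: the log2 ratio of DGA1, 1.19 as deposited, was 0.98 when scaled by the median of ratios, 1.02 when scaled by the upper quartile and 0.99 when centred. That of SCT1, −0.87 as deposited, was −1.08, −1.04 and −1.07 under the same settings, past the 2-fold line. At 1.5-fold DGA1 and DGA2 were higher, 2 of 6 beside 27.7% of all genes, and SCT1 was lower, 1 of 6 beside 8.80%. After centring SCT1, LRO1 and ARE1 were at least 1.5-fold lower, 3 of 6 beside 14.1% of all genes centred in the same way.

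Shares within each library show the make-up of the genes that complete triacylglycerol or form sterol esters, without reference to library scaling. Of the summed RPKM of DGA1, DGA2, LRO1 and ARE1, the acyl-CoA:diacylglycerol acyltransferases DGA1 and DGA2 together held 49.2% in mhy1Δ (48.5 to 50.0) and 73.5% in the overexpression strain (73.0 to 73.9), against 61.8% in wild type (61.1 to 62.6). LRO1 held 36.5% in mhy1Δ and 19.3% in the overexpression strain, against 29.8% in wild type. ARE1 held 14.3% in mhy1Δ and 7.19% in the overexpression strain, against 8.39% in wild type. In mhy1Δ LRO1 had the largest share of the 4 genes, whereas DGA1 had it in the other libraries. The summed level of these 4 genes, which does depend on library scaling, was 180 RPKM in mhy1Δ and 257 RPKM in the overexpression strain, against 193 RPKM in wild type, as deposited. SCT1 and SLC1 together held 77.2% of the summed RPKM of the 6 genes in mhy1Δ and 68.1% in the overexpression strain, against 72.9% in wild type. Most of this was SLC1, with 52.4% in mhy1Δ and 55.0% in the overexpression strain, against 57.7% in wild type. SCT1 held 13.2% in the overexpression strain, beside 13.1% for DGA1.

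**Figure D3:**
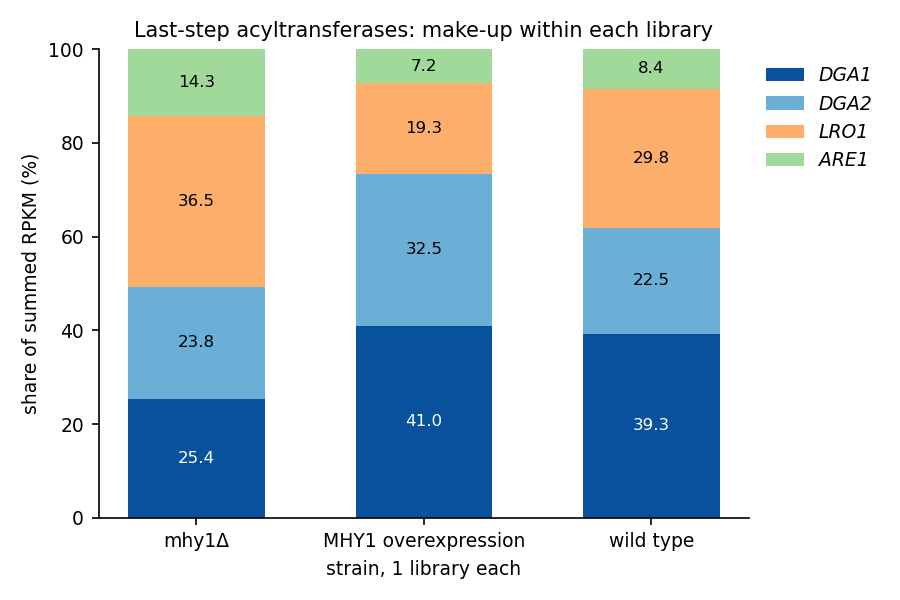
Share (%) of DGA1, DGA2, LRO1 and ARE1 in their summed RPKM in each of the 3 libraries (stacked bars, 1 library per strain). DGA1 takes 25.4% in mhy1Δ and 41.0% in the overexpression strain, against 39.3% in wild type, and LRO1 takes 36.5%, 19.3% and 29.8% in the same strains.

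Genes of the surrounding pathway were compared through 3 lists of identifiers drawn up from general knowledge of Yarrowia nomenclature, which were not checked against an annotation; they are therefore described as lists and not gene by gene. The fatty acid supply list held 10 genes, mainly of acetyl-CoA production, fatty acid synthesis, elongation and desaturation. Genes past 2-fold were not assigned to these functions, and may have another. The median log2 ratio of the list was 0.27 in mhy1Δ against wild type. Of these 10 genes, 1 was past 2-fold upward, beside 1.66% of all genes, and 0 downward, beside 5.83%. In the overexpression strain the median was −0.35, with 0 past 2-fold, beside 5.98% of all genes upward and 2.47% downward. With overexpression 9 of 10 lay below 0, beside 33.3% of all genes and 2 of the 6 acyltransferases (SCT1 and LRO1), and 9 of 10 lay below the median of all genes, beside 3 of the 6 acyltransferases (SCT1, SLC1 and LRO1). Between the engineered strains the median was −0.62, beside 0.20 for all genes. There 1 gene of the list was past 2-fold upward, beside 15.0% of all genes, and 2 were downward, beside 4.74%.

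The 5 genes listed for glycerol 3-phosphate and lipolysis were taken to act in glycerol 3-phosphate metabolism or in the breakdown of stored triacylglycerol. Genes that make glycerol 3-phosphate and genes that use it were not separated. The median log2 ratio of the 5 genes was −0.28 in mhy1Δ, with 0 past 2-fold, beside 1.66% of all genes upward and 5.83% downward. In the overexpression strain the list median was 0.59, with 1 gene at least 2-fold higher, beside 5.98% of all genes. The highest log2 ratio of the list in the overexpression strain was 1.87, beside 0.93 for DGA2, the highest of the acyltransferases. Between the engineered strains the list median was 0.72. There 2 of 5 were past 2-fold upward, beside the 15.0% of all genes given above, and 0 downward, beside 4.74%. The 11 genes listed for sterol synthesis, which supply the substrate of ARE1, had a median of −0.54 in mhy1Δ, with 9 of 11 below 0, beside 53.8% of all genes, 5 at least 1.5-fold lower, beside 13.0%, and 0 past 2-fold downward, beside 5.83%. ARE1, with a log2 ratio of 0.63 in the same comparison, lay above the highest of these genes, at 0.12. In the overexpression strain the sterol list had a median of 0.05, with 3 of 11 above the median of all genes. There 0 of the 11 were past 2-fold, beside 5.98% of all genes upward and 2.47% downward. Between the engineered strains the median of the sterol list was 0.49, beside 0.20 for all genes, with 10 of 11 above the median of all genes. There 1 of the 11 was past 2-fold upward, beside 15.0% of all genes, whereas ARE1 had a log2 ratio of −0.45.

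**Figure D4:**
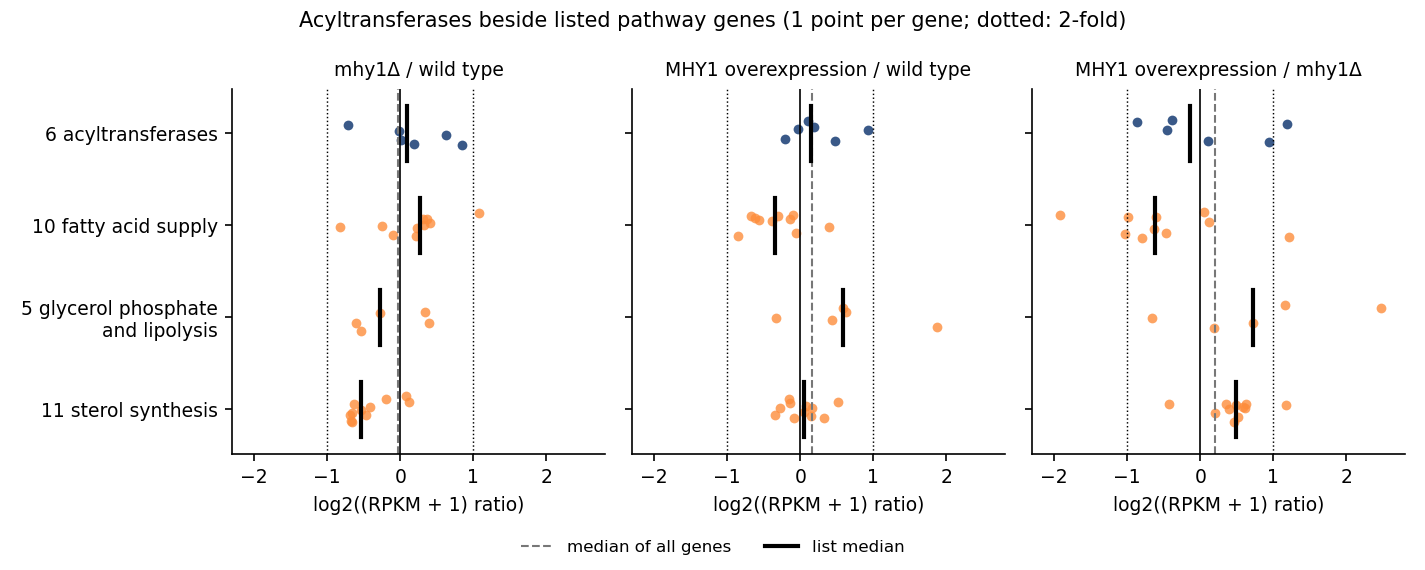
Log2((RPKM + 1) ratio) of the 6 acyltransferase genes and of 3 pathway lists in the 3 comparisons (1 point per gene, thick line for the list median, dashed line for the median of all genes, dotted lines at 2-fold). The acyltransferases spread to both sides of 0 in each comparison, from −0.72 to 0.84 in mhy1Δ against wild type, while 9 of 11 sterol synthesis genes lie below 0 there.

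Genes with a pattern like that of each acyltransferase were sought by the distance between the log2 ratios to wild type in mhy1Δ and in overexpression, over the 3 libraries and among genes with a mean of 10 RPKM or more (4933 besides the gene itself). Within a distance of 0.1 lay 277 genes for SLC1 and 128 for LRO1, whose ratios were common ones. There were 28 such genes for DGA1, 15 for ARE1, 12 for DGA2 and 2 for SCT1, and none of the 6 acyltransferases lay within 0.1 of another. The nearest to DGA1 was YALI0A11198g, at 7.64 RPKM in mhy1Δ and 18.4 RPKM in the overexpression strain, against 13.1 RPKM in wild type. The nearest to DGA2 was YALI0D20592g, at 28.7 RPKM in mhy1Δ and 57.7 RPKM in the overexpression strain, against 29.7 RPKM in wild type.

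Of the 12 genes next to the 6 acyltransferases in identifier order, 11 passed the 1 RPKM filter. In mhy1Δ against wild type 0 of them were at least 1.5-fold higher, beside 4.66% of all genes, and 1 was at least 1.5-fold lower, beside 13.0%. In the overexpression strain 3 were at least 1.5-fold higher, beside 16.8%, and 0 lower, beside 5.62%. The neighbours of SCT1 had log2 ratios of 0.35 and −0.37 in mhy1Δ, beside 0.84 for SCT1. The neighbours of DGA1 had 0.06 and −0.49, beside −0.72 for DGA1. The next listed identifier after DGA2 was further off in number than the other neighbours were, and whether it is the adjacent gene was not checked. This identifier was at 7.37 RPKM in mhy1Δ and 28.9 RPKM in the overexpression strain, against 11.8 RPKM in wild type. It too was higher in the overexpression library, with a log2 ratio of 1.22. Whether reads of neighbouring genes overlap these acyltransferases was not tested.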

How the data were processed

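The 3 RNA-seq libraries, 1 per strain, were prepared from total RNA (1 µg), per the labels' protocols, with an Illumina TruSeq kit; strandedness is not stated there. The authors deposited 1 RPKM value for each of 6448 gene identifiers per library, per the file headers. TopHat2 2.1.1 and Cufflinks 2.2.1 are named without a role per the submitters' processing notes, beside a mouse genome build that cannot hold these yeast identifiers; no source used here gives the yeast build, annotation or counting. The gene table at hand, of assembly ASM176148v1, shares 0 identifiers with the files.

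Weakly expressed genes had RPKM values in whole-read steps, from which the library totals, a length for each gene in multiples of 3 and the reads were recovered; the lengths were chosen to give whole reads, so the share of whole values (100% within 0.01) is no evidence for them. The values of the 6 genes lay within 1.78e-05 of a whole read. The listed genes held 95.8% (mhy1Δ), 96.0% (MHY1 overexpression) and 95.9% (wild type) of the totals. The recovery was tested on data simulated from the recovered totals and lengths. Such a test cannot show whether a length recovered here is a fraction of the true one. Intervals (95%) are exact conditional binomial ones for ratios of single genes, and normal approximations from the reads for sums and shares; they cover counting error only. Ratios between strains for calls are log2((x + 1)/(y + 1)) on RPKM; folds are plain RPKM ratios. The 6035 genes that reached 1 RPKM in any library entered the comparisons. Named were the 6 genes, the nearest pattern to DGA1 and to DGA2, and MHY1. The genes and lists were chosen with earlier results of these data known. Alternatives were pseudocounts of 0.1 and 5 RPKM, filters at 0 and 10 RPKM, scaling by the median of ratios or by the upper quartile, centring and a 1.5-fold line. Calculations used Python 3.11.15 with numpy 2.4.6, pandas 2.3.3 and SciPy 1.17.1.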

Additional observations from a re-analysis of the deposited data

How the results depend on the processing

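Of 90 log2 ratios of the 6 genes under other pseudocounts, scalings and centring, 81 kept their sign; the 9 that did not were those of SLC1 with overexpression and of DGA2 in mhy1Δ, given with those genes. Centring of single ratios and the other scalings at the 1.5-fold line were chosen after seeing the data. Counts of calls moved by more than 1.5 times as follows. At the 1.5-fold line 2 of the 6 genes were higher and 1 lower in mhy1Δ, 1 higher in overexpression, and 2 higher and 1 lower in overexpression against mhy1Δ. In this last comparison the 2-fold counts were 0 higher and 1 lower under median of ratios scaling and after centring, and 1 lower under upper-quartile scaling. At 1.5-fold 3 were lower under median of ratios scaling and after centring, and 2 under upper-quartile scaling. Of the 26 pathway genes, 0 were at least 2-fold higher in mhy1Δ with a pseudocount of 5. With overexpression against wild type 1 was at least 2-fold lower after centring. Between the engineered strains 1 was higher and 4 lower under median of ratios scaling, and 2 were higher after centring. At 1.5-fold 7 were lower in mhy1Δ, 3 higher and 3 lower with overexpression, and 8 higher and 7 lower between the engineered strains. Over all genes a pseudocount of 5 gave 211 lower in mhy1Δ, 188 higher with overexpression and 591 higher between the engineered strains, and the filter at 10 RPKM gave 238 higher with overexpression. The 1.5-fold line gave 281 higher and 785 lower in mhy1Δ, 1013 and 339 with overexpression, and 1671 and 531 between the engineered strains. These moves with a pseudocount, a filter or the line follow from their construction. The others came with scaling or centring, which shift all log2 ratios of a comparison nearly together. Between the engineered strains the median of all genes went from 0.20 to −0.0026 under median of ratios scaling. Why the deposited medians lay off 0 was not tested. No paired analysis was possible because each strain had 1 library, which also leaves no replicate to omit. Few reads limit ARE1 most, with 1257 in wild type.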
